A study of Mus musculus with 16 samples.

Results

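A group of 10 genes of the bone and cartilage lineages, chosen by name, was examined in total RNA sequencing of immortalised mouse embryonic fibroblasts (MEFs): Runx2, Sp7, Dlx5, Alpl, Spp1, Ibsp, Mgp, Sox9, Acan and Sox5. All 10 were matched by symbol to the gene identifiers of the expression table, which holds 54453 genes, and each had a value in all 16 lines. The lines came from 2 C57BL/6J embryos of the same parents (E13.5), a male for MEF-1 and a female for MEF-2. Cells of each embryo had been immortalised by serial passage through crisis and kept as a parental line, and single cells sorted from each parental line by flow cytometry had been grown into 7 clonal lines. Each of the 16 lines had 1 library, and the labels name no treatment. The 7 clonal lines of a set are separate clones of the cell line of 1 embryo, so embryo, sex, course of immortalisation and set cannot be told apart, and p-values measure the spread between clones only.

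Bone and cartilage both arise from mesenchymal progenitors. Runx2, followed by Sp7, directs these cells towards osteoblasts. Osteoblasts secrete a collagen matrix and mineralise it with the help of the phosphatase encoded by Alpl. They also make the acidic phosphoproteins encoded by Spp1 and Ibsp. Sox9, with Sox5 and Sox6 as partners, directs the progenitors towards chondrocytes. The matrix of chondrocytes is built on type II collagen and the proteoglycan aggrecan, the product of Acan. The matrix Gla protein encoded by Mgp holds back calcification.

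Values are regularised log2 (rlog) values, which the authors' normalisation draws towards each gene's average over the lines, most strongly for genes with few reads. Differences of weakly expressed genes are therefore understated. The table holds no read counts, so the depth behind a value is unknown. In such bulk samples, fewer cells of a type and less RNA per cell cannot be told apart. The labelled cell type was checked first. All 12 fibroblast markers had an average above 0, led by Col1a1 (average 20.88) and Fn1 (20.82), and their summed level, on a log2 scale, was 22.24 to 22.72 in MEF-1 clones and 22.06 to 22.76 in MEF-2 clones. These sums are set by the collagens and Fn1, so single fibroblast markers are named here, after their values were seen. By the test used below, 5 of the 12 differed between the sets, 4 lower in MEF-2 (Dcn by a difference of -4.74, Lum by -3.68, Pdgfra by -1.85 and Col3a1 by -0.60) and Thy1 higher by 2.59. Over all 15285 genes tested 56.1% were called, so this count lies below the background. Of the other marker lists, the osteoclast and macrophage list bears most on this gene group, since macrophages also make Spp1. It had 7 of 13 markers above 0 and summed to between 8.44 and 12.04 in MEF-1 and between 8.18 and 11.72 in MEF-2, led by Ctsk (9.59) and Csf1r (6.23), while Adgre1, Aif1, Tyrobp, Calcr, Dcstamp and Ocstamp were at or below 0. Of the 7 tested, 4 differed between the sets, and named after their values were seen these were Acp5 (difference 3.54) and Csf1r (1.36), higher in MEF-2, and Lyz2 (-2.80) and Mmp9 (-0.43), lower. That count is near the 56.1% of all genes and is no result about the list.

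Set against exon length, as the average rlog value minus the log2 of the exon length in kilobases, the lineage genes spanned nearly the whole range of expressed genes. Mgp stood at 16.26, above 99.9% of the 15285 protein-coding genes tested, followed by Spp1 at 13.87, Acan at 13.02 and Sox9 at 12.01, above 98.8%, 97.8% and 95.1%. Runx2 came next at 9.35, above 65.7%, and Sox5 at 7.54, above 39.4%. Dlx5 at 5.21, Alpl at 3.65 and Sp7 at 2.42 lay low, Dlx5 above 25.7% and Sp7 above 15.4% of genes. Ibsp, with an average rlog value of -0.46, was lower still and did not enter the test. RNA of Sox9 and of the cartilage proteoglycan was thus abundant in the same lines in which RNA of the osteoblast regulator Sp7 and of alkaline phosphatase was scarce. The order held in all 16 lines for Sox9 over Runx2, Runx2 over Sox5 and Sox5 over Dlx5. It held in 15 of 16 for Acan over Sox9, 14 for Mgp over Spp1, 14 for Dlx5 over Alpl, 13 for Alpl over Sp7 and 12 for Spp1 over Acan, so these 5 pairs of neighbours were not separated in every line.

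Between the 7 MEF-1 and the 7 MEF-2 clonal lines, 3 of the 9 members tested differed, and all 3 were lower in MEF-2: Mgp, Sox5 and Dlx5. The test was limma on the rlog values at an adjusted p under 0.05 over all genes tested. By the same test 56.1% of the 15285 genes were called, 28.6% lower and 27.5% higher in MEF-2, so the share of 33.3% among the members lay below the background. The sets overlapped for every member, whereas they did not overlap for 25.9% of all genes tested. Other marker lists also differed in summed log2 level. The adipocyte list was at 9.80 to 10.71 in MEF-1 and 7.46 to 8.64 in MEF-2 clones, with 4 of 5 tested genes called lower in MEF-2. The neural and Schwann cell list was at 10.72 to 11.84 and 13.01 to 14.38, with 2 of 5 tested genes called higher and 2 lower. The skeletal muscle list, at 5.44 to 7.49 and 7.28 to 10.34, overlapped between the sets. Of its 3 genes tested only Acta1 was called (difference 2.77). The part of these lists and of the fibroblast markers above in the differences of the members was not tested. The median difference of the members, MEF-2 minus MEF-1, was -0.16 on the log2 scale against -0.0043 for all genes, and the median absolute difference was 0.39 against 0.30. Ibsp was not tested, its average lying at or below the limit of 0. The 3 genes that were called are the only members on chromosome 6, where 417 of 748 genes tested were called (55.7%), 244 of them lower in MEF-2 (32.6%), with a median difference of -0.06. No member lies on chromosomes 12, 18 or 19, whose genes had median differences of 0.60, 0.28 and -0.36.

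**Figure D1:**
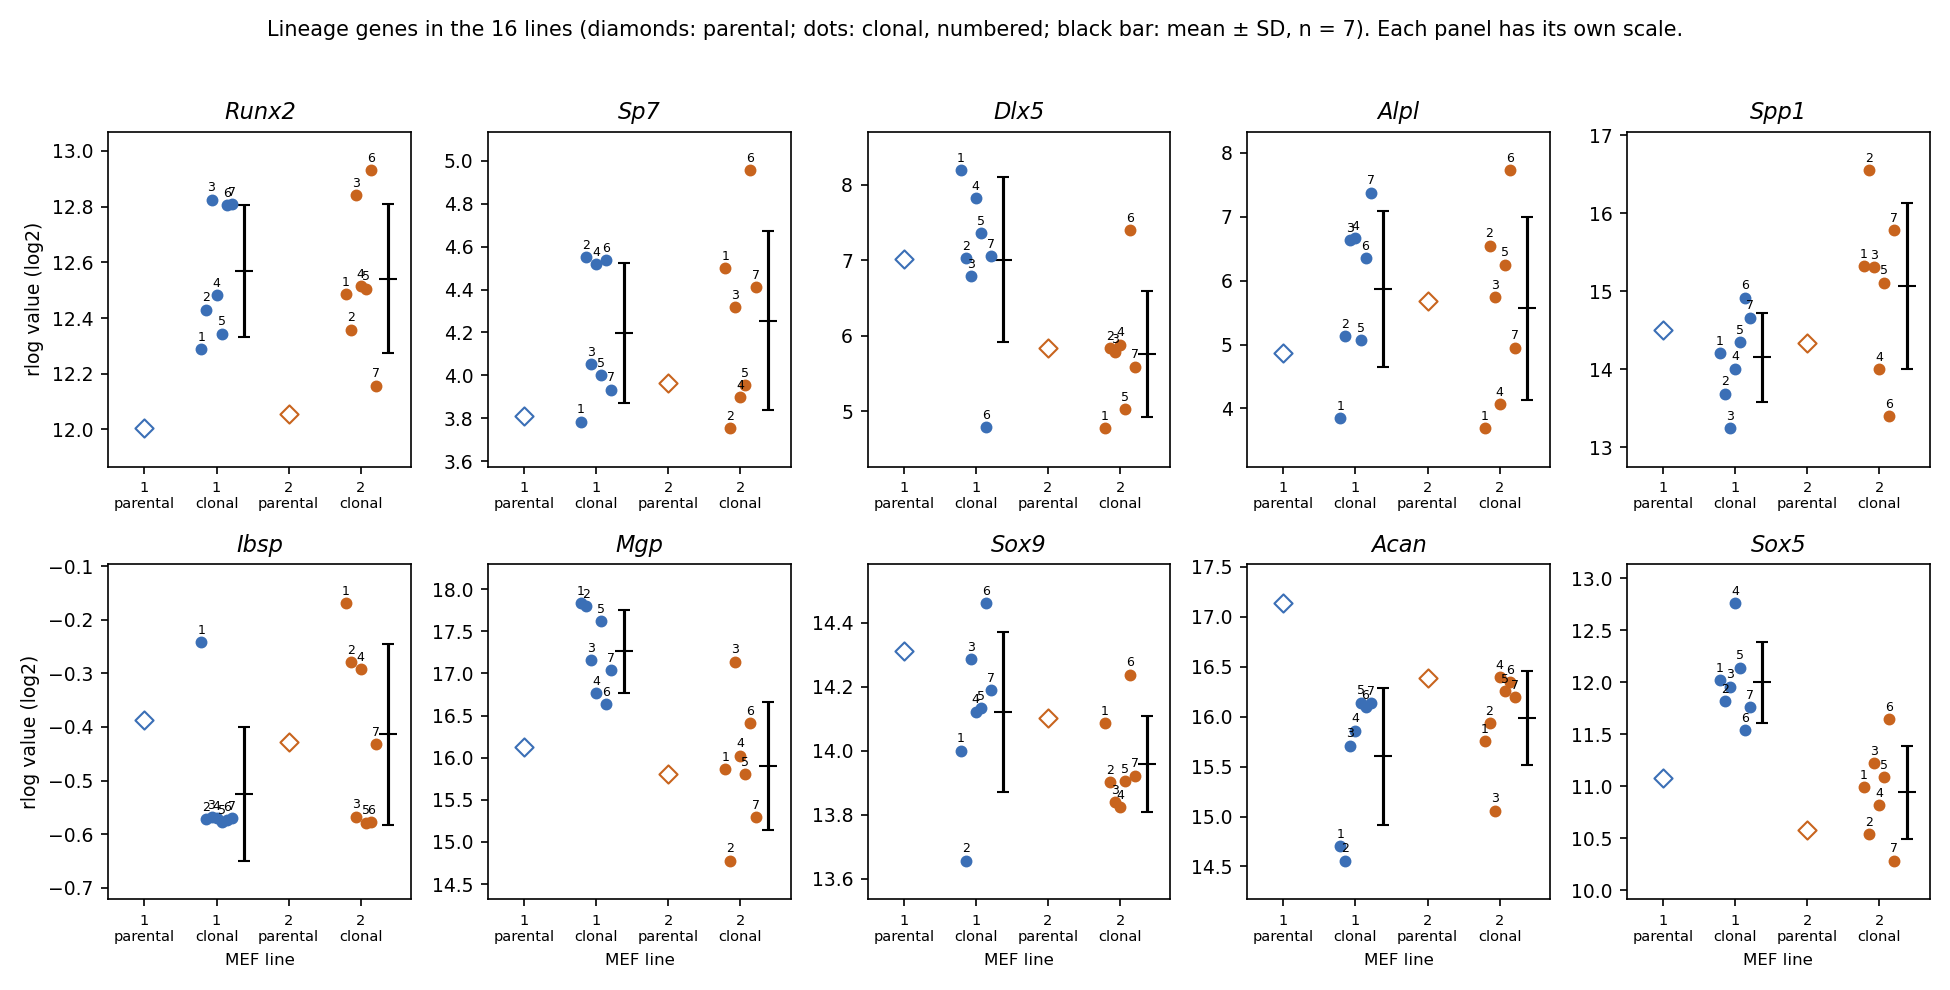
Rlog value (log2, vertical axis) of each of the 10 lineage genes in the MEF-1 and MEF-2 parental lines (diamonds) and clonal lines (numbered dots), with the mean and SD of the 7 clonal lines as a black bar; each panel has its own scale. Mgp and Sox5 lie mostly higher in MEF-1, Runx2 lies above the parental line in all 14 clones, and Dlx5 and Alpl spread over several log2 units within a set.

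Promoters are printed for 3 members because of their levels. Runx2 was expressed in every line, while Spp1 and Ibsp stood at opposite ends of the expression range. Spp1 and Ibsp lie on the same strand of chromosome 5 with 124 kb between them. Mepe, a gene with an average of 0, lies in that stretch. Each run covers 250 bases before and 50 after a start of RefSeq in GRCm38.p6, 5′ to 3′ on the strand of the gene. Capitals mark the RUNX core TGTGGT (in reverse complement ACCACA), the SOX core ACAATG and the TATA box TATAAA (in reverse complement TTTATA), searched on both strands, with no match overlapping another. The coordinates are chr17:44814578-44814877 on the minus strand for Runx2, chr5:104434861-104435160 on the plus strand for the first of the 2 Spp1 starts, and chr5:104299037-104299336 on the plus strand for Ibsp.
Runx2: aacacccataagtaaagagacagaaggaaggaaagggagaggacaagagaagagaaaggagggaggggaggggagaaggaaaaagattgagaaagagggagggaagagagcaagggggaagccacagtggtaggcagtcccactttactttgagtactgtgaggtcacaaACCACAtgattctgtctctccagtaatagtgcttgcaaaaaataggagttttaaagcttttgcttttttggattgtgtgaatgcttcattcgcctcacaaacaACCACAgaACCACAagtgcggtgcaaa
Spp1: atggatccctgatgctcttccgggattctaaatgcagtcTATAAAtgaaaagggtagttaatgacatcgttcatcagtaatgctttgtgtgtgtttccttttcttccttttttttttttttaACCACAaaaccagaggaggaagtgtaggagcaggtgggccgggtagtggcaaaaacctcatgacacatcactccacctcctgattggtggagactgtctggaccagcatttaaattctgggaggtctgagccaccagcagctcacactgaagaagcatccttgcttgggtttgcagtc
Ibsp: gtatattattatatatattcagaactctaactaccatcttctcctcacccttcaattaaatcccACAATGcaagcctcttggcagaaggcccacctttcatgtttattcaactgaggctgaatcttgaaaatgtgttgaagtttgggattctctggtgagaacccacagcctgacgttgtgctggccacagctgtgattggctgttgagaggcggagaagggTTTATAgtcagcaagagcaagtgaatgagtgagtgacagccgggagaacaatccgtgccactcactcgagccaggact
The Runx2 run held the RUNX core 3 times, beginning at positions -80, 24 and 32, counted from 0 at the first base after the 250. The Spp1 run held it once, at -128, with a TATA box at -211. The Ibsp run held a SOX core at -186 and a TATA box at -28, and no RUNX core. Over all 32851 promoters of this length, 16.8% held the RUNX core, 12.6% the SOX core and 13.6% the TATA box, so single matches of 6 letters are common and are given as a description. All 3 runs held fewer CpG dinucleotides than the median promoter, with 2 in Runx2, 3 in Spp1 and 5 in Ibsp against a median of 7 over all promoters (25th to 75th percentile 3 to 20). Only Runx2 lay below that range. The values are per gene, so whether the lines used these starts or others of the same genes is not known. Of the other members with promoters in the table, Acan had 31 CpGs, Sox5 had 3, and the 2 starts of Alpl had 4 and 26.

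Among the regulators, Runx2, the runt-domain factor required for osteoblasts (ENSMUSG00000039153, minus strand, chr17:44495987-44814797), was expressed at nearly the same level in both sets. Its rlog value in the MEF-1 clonal lines was 12.29 at the lowest, 12.48 at the median and 12.82 at the highest, and in the MEF-2 clonal lines 12.16, 12.50 and 12.93. The parental lines lay at 12.01 and 12.05, so that all 14 clones were above their own parental line, by a mean of 0.56 in MEF-1 and 0.49 in MEF-2. All clones of both sets were above their parental line for 6.73% of all genes tested. Each parental line had 1 library, so this is a description without a test. The set means were 12.57 ± 0.24 and 12.54 ± 0.27 (SD, n = 7 each), a difference of -0.03 ± 0.12 (SE, 95% interval -0.29 to 0.24, adjusted p = 0.865). The lowest MEF-1 value was that of line 1, in which the median of chromosome 17 genes was also low (-0.23); with the chromosome median taken away the set difference was -0.07.

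Sp7, the zinc-finger factor osterix that acts after Runx2 in osteoblasts (ENSMUSG00000060284, minus strand, chr15:102356606-102367182), was low in every line. Its values ran from 3.78 over a median of 4.05 to 4.55 among MEF-1 clones and from 3.75 over 4.32 to 4.96 among MEF-2 clones, and the parental lines stood at 3.81 and 3.97. The sets overlapped almost fully, with means of 4.20 ± 0.33 and 4.26 ± 0.42 and a difference of 0.06 ± 0.20 (95% interval -0.36 to 0.48, adjusted p = 0.817). Quantile normalisation gave a difference of 0.46 (adjusted p = 0.0613). In MEF-1, lines 2, 4 and 6 lay together at 4.52 to 4.55, above the other 4 lines.

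Dlx5, a homeobox factor of the developing skeleton (ENSMUSG00000029755, minus strand, chr6:6877805-6882085), was lower in MEF-2, with 1 line of each set going against the rest. In MEF-1 it reached 8.19 in line 1, with a median of 7.06, and stood at 4.78 in line 6, where the next lowest line had 6.79. In MEF-2 it ranged from 4.78 over a median of 5.79 to 7.40 in line 6, where the next highest line had 5.88. The parental lines, at 7.02 and 5.84, lay close to the medians of their own clones. The difference was -1.25 ± 0.48 (95% interval -2.26 to -0.23, a fold of 2.37, adjusted p = 0.0368). This call rested on a narrow margin. It was lost when any of 11 single lines was left out, and kept without MEF-1 line 3 (-1.28; adjusted p = 0.0481), MEF-1 line 6 (-1.62; 0.00207) or MEF-2 line 6 (-1.52; 0.00968). The spread of Dlx5 among clones was larger than that of 98.5% of genes in MEF-1 and 97.0% in MEF-2.

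Sox9, the factor that sets the chondrocyte lineage (ENSMUSG00000000567, plus strand, chr11:112782224-112787760), was high in every line. Its SD among clones was above that of 61.4% of genes tested in MEF-1 and 45.1% in MEF-2. Clones of MEF-1 lay between 13.66 and 14.46 with a median of 14.13, clones of MEF-2 between 13.82 and 14.24 with a median of 13.90, and the parental lines at 14.31 and 14.10. In each set 6 of 7 clones were below their parental line. The MEF-1 line with the lowest value was line 2. The difference of -0.16 ± 0.10 (95% interval -0.38 to 0.06, adjusted p = 0.195) did not pass the test with all lines, and passed it without MEF-1 line 2 (-0.24; adjusted p = 0.0231).

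Sox5, the partner of Sox6 that works with Sox9 on cartilage genes (ENSMUSG00000041540, minus strand, chr6:143828425-144781977), was lower in MEF-2. Its lowest, median and highest values were 11.54, 11.96 and 12.76 among MEF-1 clones and 10.29, 10.99 and 11.64 among MEF-2 clones. Only line 6 of each set brought the ranges into contact, the lowest MEF-1 line lying just under the highest MEF-2 line. The means were 12.00 ± 0.39 and 10.94 ± 0.45, a difference of -1.06 ± 0.20 (95% interval -1.49 to -0.62, a fold of 2.08, adjusted p = 0.000491), and the call was kept under every alternative run. All 7 MEF-1 clones were above their parental value of 11.08, by a mean of 0.92, as were the clones for 20.8% of all genes in that set. In MEF-2, 5 of 7 clones were above the parental 10.58. The same-strand transcripts Sox5it, with an average of 1.43, and Gm44068, with 3.54, overlap Sox5, and reads shared with them cannot be told apart in these values.

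**Figure D2:**
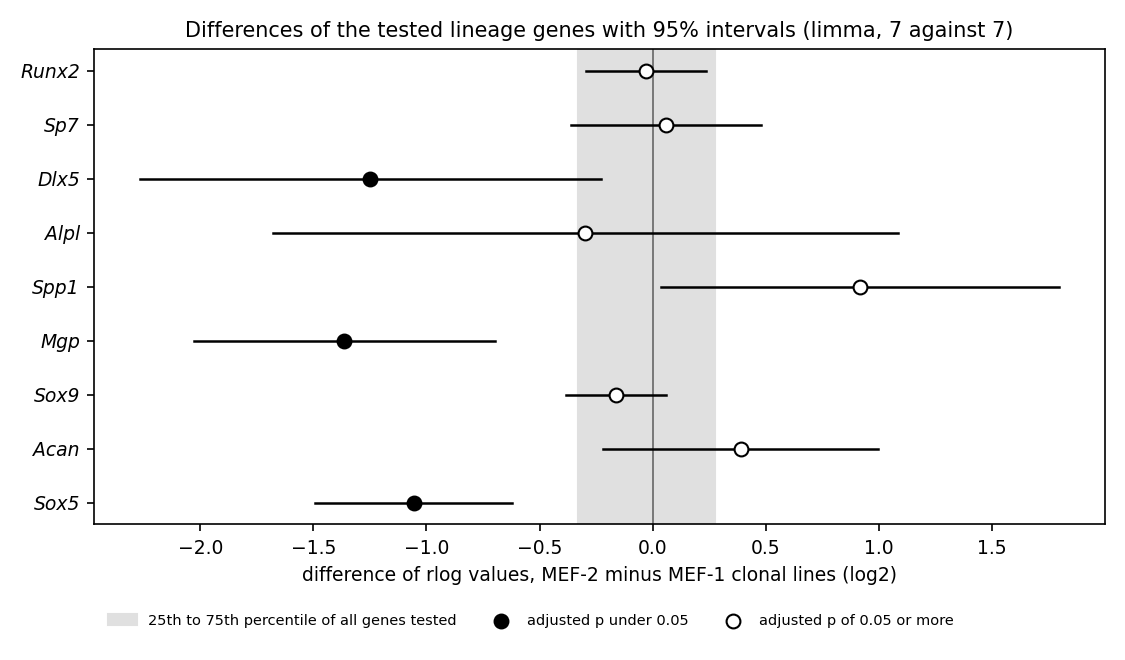
Difference of rlog values, MEF-2 minus MEF-1 clones (log2, horizontal axis) for the 9 lineage genes tested, with 95% intervals from limma; filled circles mark an adjusted p under 0.05 and the grey band the 25th to 75th percentile (-0.33 to 0.28) of all 15285 genes tested. The intervals of Mgp, Sox5 and Dlx5 lie below 0, that of Spp1 reaches from 0.04 to 1.80, and those of Runx2 and Sox9 are the narrowest.

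Among the genes of matrix and mineral, Mgp, the inhibitor of calcification (ENSMUSG00000030218, minus strand, chr6:136872435-136875823), showed the largest difference of the members. Among MEF-1 clones it ranged from 16.63 over a median of 17.15 to 17.84, and among MEF-2 clones from 14.78 over 15.86 to 17.14. The overlap came from MEF-2 line 3, the next highest MEF-2 line lying at 16.41. The means were 17.26 ± 0.49 and 15.90 ± 0.76, a difference of -1.36 ± 0.31 (95% interval -2.03 to -0.70, a fold of 2.57, adjusted p = 0.00179, and 0.00764 by the exact permutation test over the 14 lines). The parental lines differed less, at 16.13 and 15.80. All 7 MEF-1 clones were above their parental line, by a mean of 1.13, whereas 4 of 7 MEF-2 clones were, with a mean of 0.096 above it.

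Spp1, the gene of osteopontin (ENSMUSG00000029304, plus strand, chr5:104435118-104441050), lay higher in most MEF-2 clones without passing the test. The MEF-1 clonal lines ranged from 13.24 over a median of 14.21 to 14.92, and the MEF-2 clonal lines from 13.39 over 15.31 to 16.55, with parental values of 14.50 and 14.34. All MEF-2 clones were above every MEF-1 clone except lines 4 and 6, which, at 14.00 and 13.39, lay inside the MEF-1 range. The difference was 0.92 ± 0.41 (95% interval 0.04 to 1.80, adjusted p = 0.0709). It passed the threshold without MEF-2 line 4 (adjusted p = 0.0369), without MEF-2 line 6 (0.0107) and with the median of each chromosome taken away (1.00; 0.0487). In MEF-1 line 7 the median of chromosome 5 genes was high (0.25). The same-strand transcript Gm42793 overlaps Spp1, with values of 5.65 ± 0.55 in MEF-1 and 6.57 ± 0.81 in MEF-2 clones, and reads shared between them cannot be told apart. The summed osteoclast and macrophage markers overlapped in range, with the upper ends set by Ctsk. Acp5 and Csf1r were higher in MEF-2 and Lyz2 and Mmp9 lower, as given above. The part of these markers in the Spp1 values was not tested.

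Ibsp, the gene of bone sialoprotein (ENSMUSG00000029306, plus strand, chr5:104299171-104311469), was at the bottom of the range. In 6 MEF-1 and 3 MEF-2 clonal lines it lay within 0.02 of its lowest value, -0.58, and over these 9 lines its value followed the level of genes without reads (r = 0.999), as a gene without reads there would. Of the other clones, MEF-1 line 1 had -0.24 and MEF-2 lines 1, 2, 4 and 7 had -0.17, -0.28, -0.29 and -0.43, with parental values of -0.39 and -0.43. Spp1, on the same chromosome and strand, was thus among the most abundant transcripts of the lines in which Ibsp was lowest.

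Alpl, the gene of tissue-nonspecific alkaline phosphatase, which frees phosphate for mineral (ENSMUSG00000028766, minus strand, chr4:137741733-137796384), varied more among clones than almost any other gene. In MEF-1 it went from 3.84 in line 1 over a median of 6.35 to 7.38 in line 7, and in MEF-2 from 3.69 in line 1 over 5.75 to 7.73 in line 6. The parental lines, at 4.87 and 5.68, lay inside the range of their clones. The SD of 1.23 in MEF-1 and 1.43 in MEF-2 exceeded that of 99.0% and 99.6% of genes tested, whose median SDs were 0.199 and 0.164. Against this spread the sets did not separate, with a difference of -0.30 ± 0.65 and an interval, -1.68 to 1.08, that does not exclude a fold of more than 2 either way (adjusted p = 0.716).

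Acan, the gene of aggrecan, the main cartilage proteoglycan (ENSMUSG00000030607, plus strand, chr7:79053483-79115099), was lower than in the parental population in 13 of 14 clones. The MEF-1 clonal lines ranged from 14.56 over a median of 15.86 to 16.14, all below the parental value of 17.14, with a mean difference of -1.54. The MEF-2 clonal lines ranged from 15.06 over 16.19 to 16.39, 6 of 7 below the parental 16.38, with a mean difference of -0.39. All 7 clones were below the parental line for 20.2% of genes in MEF-1 and 15.8% in MEF-2. MEF-1 lines 1 and 2, at 14.71 and 14.56, and MEF-2 line 3, at 15.06, lay apart from the other clones. Between the sets the difference was 0.39 ± 0.28 (95% interval -0.22 to 1.00, adjusted p = 0.258).

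Single clones combined these genes in different ways. MEF-2 line 6 had the highest value of its set for 6 of the 10 members, Runx2, Sp7, Dlx5, Alpl, Sox9 and Sox5, and the lowest for Spp1. The same line was the highest of 7 for 11.4% of all genes tested. It was also the highest for 19 of the 36 tested genes of a wider chondrogenic list (52.8%) and for 9 of the 35 of a wider osteogenic list (25.7%). The osteogenic count was not particular to this line. MEF-2 line 7 was also the highest for 9 of the 35, against 24.6% of all genes. MEF-1 lines 1 and 4 were each the highest for 10 (28.6%), against 16% and 10.8% of all genes. In MEF-1, line 4 was the highest for 17 of the 36 chondrogenic genes (47.2%) against 10.8% of all genes, and line 2 was the lowest for 15 (41.7%) against 20.5%. Among the members themselves no MEF-1 line led as often, line 1 being the highest for 3 and the lowest for 3. These counts are a description of lines and were not tested.

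**Figure D3:**
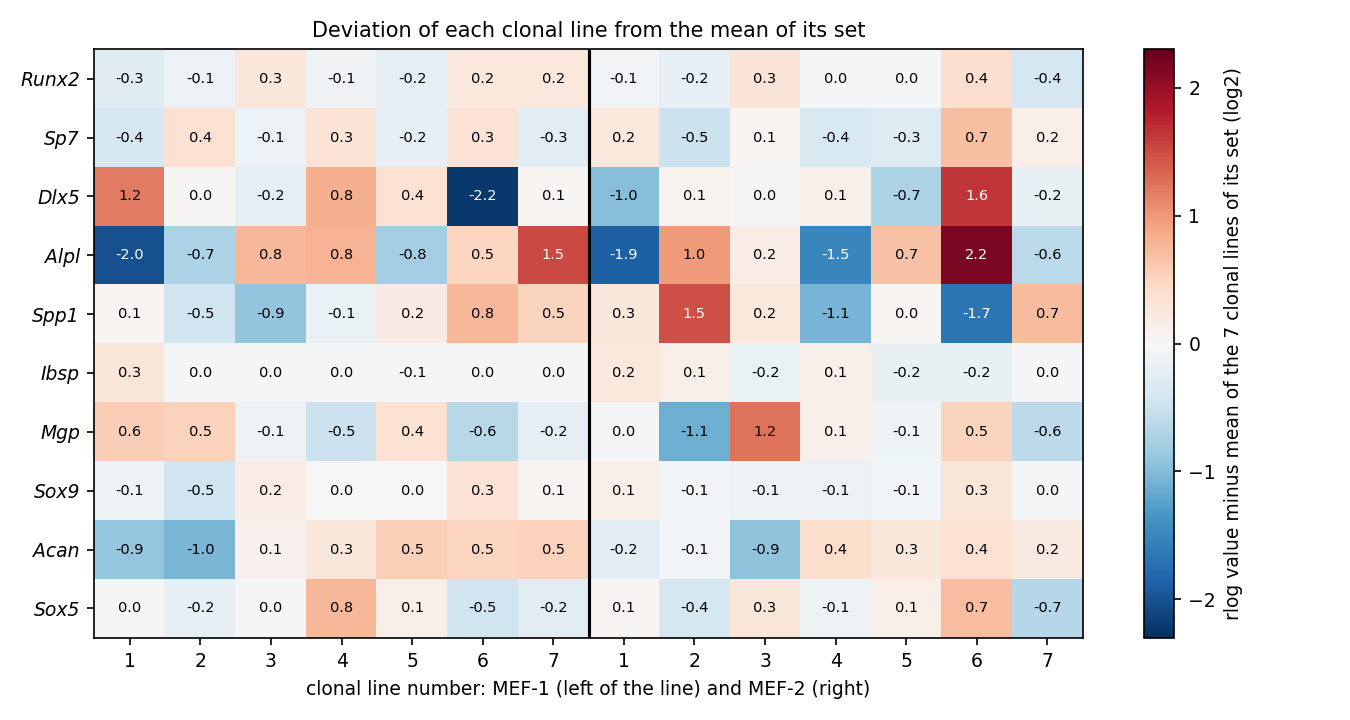
Rlog value of each clonal line, less the mean of the 7 clonal lines of its set (log2; red above, blue below) for the 10 lineage genes, MEF-1 on the left and MEF-2 on the right. In MEF-1, Alpl and Dlx5 deviate most, in MEF-2 Alpl and Spp1 do (SD 1.43 and 1.06), and MEF-2 line 6 is above its set's mean for 8 of the genes.

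Whether the regulators varied together with other members across clones was examined in 8 pairs within each set, 16 relations of 7 lines each, and none passed an adjusted p under 0.05 by exact permutation of the pairings (smallest adjusted p = 0.181). An unadjusted p under 0.05 for Pearson's r was found in 3 of them. Runx2 and Alpl had a positive relation in MEF-1 (r = 0.84, exact p = 0.0339, adjusted 0.181, rho = 0.82, exact p = 0.0341, adjusted 0.273), with r = 0.73 after the 2 lines farthest from the Runx2 median were left out. With the chromosome median taken away r was 0.63. In MEF-2 the same pair gave r = 0.47 (exact p = 0.301, adjusted 0.438, rho = 0.32, exact p = 0.498) and -0.011 without the 2 farthest lines. Sox9 and Acan gave r = 0.80 in MEF-1 (exact p = 0.0175, adjusted 0.181, rho = 0.57, exact p = 0.200, r = 0.63 without the 2 farthest lines) and r = 0.26 in MEF-2 (exact p = 0.569, adjusted 0.758, rho = 0, exact p = 1).

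Sox9 and Mgp had a negative relation in MEF-1 (r = -0.76, exact p = 0.0306, adjusted 0.181, rho = -0.71, exact p = 0.0881), with r = -0.56 without the 2 farthest lines, and gave r = 0.091 in MEF-2 (exact p = 0.833, adjusted 0.833, rho = -0.07, exact p = 0.906). Runx2 and Spp1 had a negative relation in MEF-2 by rank (rho = -0.86, exact p = 0.0238, adjusted 0.273, r = -0.66, exact p = 0.107, adjusted 0.343), with r = -0.29 without the 2 farthest lines, and gave r = 0.11 in MEF-1 (exact p = 0.798, rho = -0.07, exact p = 0.906, r = 0.65 without the 2 farthest lines). Dlx5 and Runx2 gave r = -0.68 in MEF-1 (exact p = 0.0508, adjusted 0.203, rho = -0.68, exact p = 0.110, r = -0.58 without the 2 farthest lines) and r = 0.58 in MEF-2 (exact p = 0.185, adjusted 0.404, rho = 0.54, exact p = 0.236, r = 0.11 without the 2 farthest lines), and whether the sets differed in this was not tested. Of the other pairs, Runx2 with Sp7 gave r = 0.13 and 0.49 in MEF-1 and MEF-2 (rho 0.21 and 0.29), Runx2 with Ibsp gave -0.51 in both (rho 0.07 and -0.50), and Sox9 with Sox5 gave -0.16 and 0.56 (rho -0.46 and 0.25), with exact p from 0.131 to 0.787 for r. Without the 2 farthest lines Runx2 with Sp7 gave 0.70 in MEF-1. In MEF-1 the relation with Ibsp is set by line 1, since the other 6 lines lay at the lowest Ibsp value, and its ranks carry no information.

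**Figure D4:**
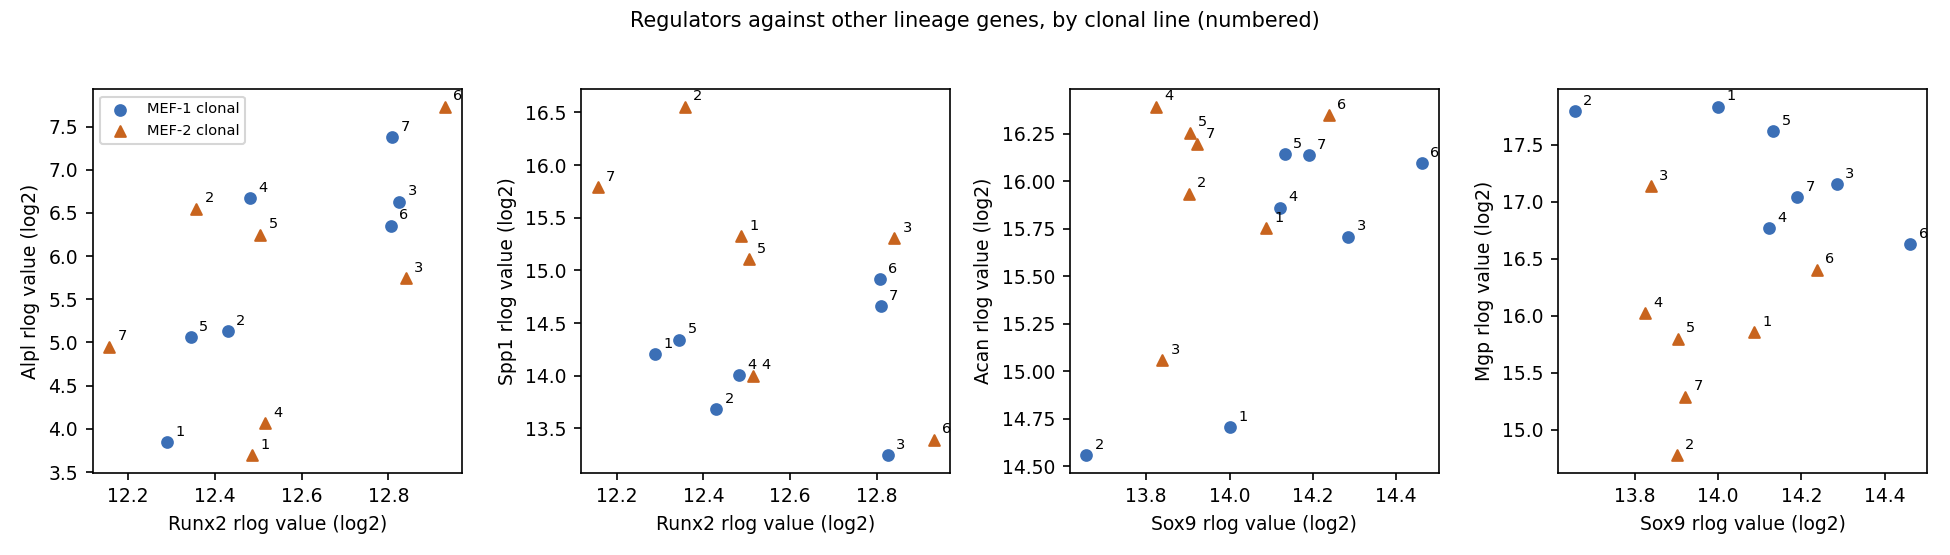
Rlog values (log2 on both axes) of Alpl and Spp1 against Runx2 and of Acan and Mgp against Sox9 in the 7 MEF-1 (circles) and 7 MEF-2 (triangles) clonal lines, numbered. No relation passed the adjusted threshold. In MEF-1, r was 0.84 for Runx2 with Alpl, 0.80 for Sox9 with Acan and -0.76 for Sox9 with Mgp.

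The genes whose values followed 3 of the regulators most closely were taken from all genes tested. Over the 14 clonal lines, with each value centred on the mean of its set, the 3 protein-coding genes most like Runx2 were Pgap3 (r = 0.92), Fbxl17 (0.91) and Zfp521 (0.90). Those most like Sp7 were Gm48552 (0.82), Lhfp (0.78) and Foxl1 (0.76), and those most like Sox9 were Rbm12 (0.90), Huwe1 (0.90) and Plekhf1 (0.88). These are the highest values out of all genes tested and carry no p.

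The rest of the bone programme, a list of 40 further osteogenic genes, was called in both directions. Of the 35 tested, 16 were called (45.7%), 12 lower and 4 higher in MEF-2, with a median difference of -0.24 against -0.0043 for all genes tested. Over all genes, 56.1% were called, 28.6% lower and 27.5% higher. The sets did not overlap for 4 of the 35, against 25.9% of all genes, so the list lay below the background in both counts. The lowest in MEF-2 was Msx1, a homeobox gene of limb and skull progenitors, at 8.49 ± 0.40 against 3.92 ± 0.07, a difference of -4.57. The parental lines, with 1 library each, were less far apart for Msx1, at 8.53 and 6.63, and all 7 MEF-2 clones were below theirs. Next came Zbtb16, a zinc-finger gene of limb patterning, at 5.56 ± 1.26 against 3.41 ± 0.48, and Lrp5, a Wnt co-receptor that controls bone mass, at 13.69 ± 0.21 against 11.64 ± 0.69. Lrp5 lies on chromosome 19, whose genes had a median difference of -0.36. The higher genes were led by the BMP receptor gene Bmpr1b, at 8.66 ± 0.34 against 10.04 ± 0.65, the ligand gene Bmp2, with a difference of 1.29 ± 0.53 (adjusted p = 0.0485), and Gpnmb, the osteoactivin gene, at 3.15 ± 0.46 against 3.93 ± 0.45. Of the genes of mature osteoblasts and osteocytes, Bglap, Bglap2, Mepe, Dspp and Sost were at or below 0 on average and were not tested, while Phex (average 4.93), Ifitm5 (4.16) and Dmp1 (2.90), named after their values were seen, were above 0.

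The cartilage programme was, by count, mostly lower in MEF-2. Of 37 further chondrogenic genes, 36 were tested and 25 called (69.4%), 21 lower (58.3%) and 4 higher (11.1%) in MEF-2, with a median difference of -0.86. Over all genes these shares were 56.1%, 28.6% and 27.5%. The sets did not overlap for 13 of the 36, against 25.9% of all genes. The genes with the largest differences were Cytl1, a cytokine-like product of chondrocytes, at 6.80 ± 0.48 in MEF-1 against 3.02 ± 0.09 in MEF-2, the matrilin gene Matn4, at 10.74 ± 0.89 against 7.29 ± 0.79, and the type IX collagen gene Col9a1, at 9.38 ± 1.44 against 6.22 ± 0.70. Not all cartilage matrix genes went this way. Col9a3, which encodes another chain of type IX collagen, was higher in MEF-2, at 8.11 ± 0.45 against 10.52 ± 0.94, as were the proteoglycan gene Vcan, at 15.17 ± 0.54 against 16.65 ± 0.29, and the matrilin gene Matn3, at 6.80 ± 0.67 against 7.64 ± 0.38. Matn3 lies on chromosome 12, whose genes had a median difference of 0.60. In the parental lines, with 1 library each, the order of Matn3 was the other way, at 8.97 in MEF-1 and 8.04 in MEF-2. Col2a1, the type II collagen gene, named here after its values were seen, was abundant in both sets at 18.33 ± 0.74 and 18.08 ± 0.60 (adjusted p = 0.545). The members Sox9 and Acan likewise did not pass the test, so within this lineage Sox5 and 21 listed genes were lower in MEF-2 while Sox9, Acan and Col2a1 were not called.

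**Figure D5:**
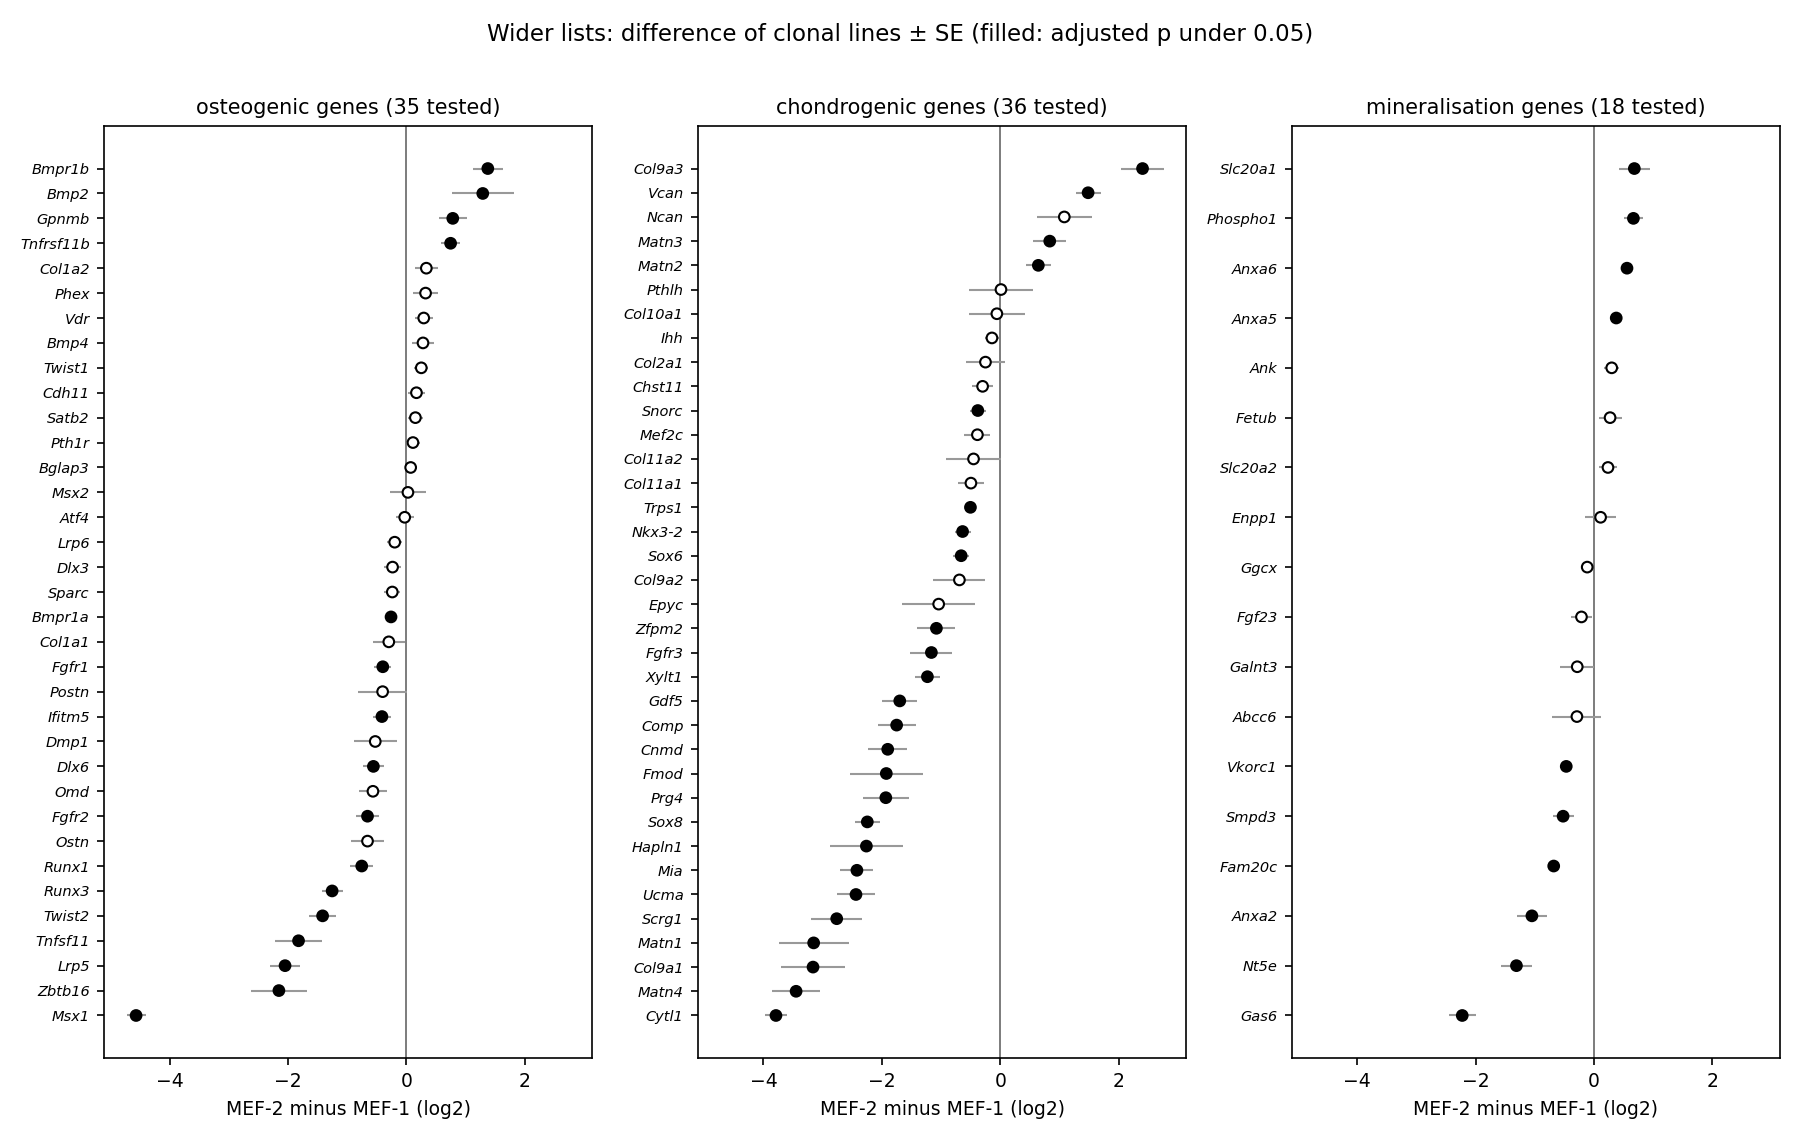
Difference of rlog values, MEF-2 minus MEF-1 clones (log2, horizontal axis, with the SE) for the tested genes of the wider osteogenic (35), chondrogenic (36) and mineralisation (18) lists, ordered by size; filled circles mark an adjusted p under 0.05. Chondrogenic genes lie mostly to the left, 21 of them called lower in MEF-2, while the other lists spread to both sides.

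Of 19 genes of mineral deposition and its control, 18 were tested and 10 called (55.6%), 6 lower and 4 higher in MEF-2, with a median difference of -0.16. This is close to the 56.1% of all genes called, and the 4 genes of 18 without overlap of the sets are near the 25.9% of all genes, so these counts are no result about the list. The lowest was Gas6, a vitamin K dependent Gla protein like Mgp, at 14.80 ± 0.58 against 12.57 ± 0.32, a difference of -2.23. Nt5e, the nucleotidase that forms adenosine at the cell surface, stood at 9.84 ± 0.37 against 8.53 ± 0.67, and the annexin gene Anxa2 at 14.85 ± 0.07 against 13.80 ± 0.73. The phosphate carrier gene Slc20a1 was higher in MEF-2 by 0.68, the phosphatase gene Phospho1 by 0.66 and the annexin gene Anxa6 by 0.56. Ahsg was not tested.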

How the data were processed

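Total RNA of 16 lines, depleted of ribosomal RNA, was sequenced from directional libraries. Per the submitters' processing notes the tools were Trim Galore 0.6.0, Salmon 1.5.2 and DESeq2 1.24.0 with the mm10 genome, and the authors deposited 1 table of rlog (log2) values per gene and line. How transcripts were summed to genes, and whether the rlog step knew the groups, is not given in the sources used here. The values hold no counts, so no count test and no interval or floor of counting error was computed. The 95% intervals are those of limma's differences.

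Gene identifiers were matched to the GENCODE mouse release 21 annotation (54200 of 54453, with 253 unmatched), whose coordinates are those of mm10. Protein-coding genes with an average above 0 over the 16 lines (15285) were tested with limma 3.58.1 in R 4.3.3 with a trended prior, 7 MEF-2 against 7 MEF-1 clonal lines, two-sided, with Benjamini-Hochberg adjusted p under 0.05. Parental lines, with 1 library each, stayed out of the test. Errors after ± are SDs over 7 lines for levels and SEs for differences. Relations between members used exact two-sided permutation of the pairings (smallest possible p 0.000397), adjusted over 16 relations. The script was tested on simulated data. Promoters came from RefSeq GRCm38.p6, which held them for 6 members.

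The members, the 3 wider lists and the marker lists were chosen with earlier results of these data known. Named were all members, the 3 genes of each wider list with the largest differences called in each direction, the 3 genes most like Runx2, Sp7 and Sox9, and the marker genes with the highest averages. Alternatives were a constant prior, other filters, all annotated genes, other scalings, removal of chromosome medians, the parental lines added, a replicate block, an exact permutation test and each clonal line left out.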

Additional observations from a re-analysis of the deposited data

Results flagged for a closer look

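Single clones stood far from the other 6 of their set in 5 of 56 sets of 7 values examined. For independent, normally spread values the rule used flags about 1 set in 20, or 2.8. These sets do not meet that condition, so the 2 numbers cannot be compared. Genes of the wider lists were picked by their differences in these data, and 6 MEF-1 lines lay at the lowest Ibsp value. Dlx5 was set apart in both sets and in opposite directions, at 4.78 in MEF-1 line 6, whose nearest line had 6.79, and at 7.40 in MEF-2 line 6, whose nearest line had 5.88. Without either line the difference of Dlx5 between the sets was larger. Ibsp stood at -0.24 in MEF-1 line 1 with the next line at -0.57, a step within the lowest range of the scale. Gpnmb, the osteoactivin gene of the wider osteogenic list, stood at 4.10 in MEF-1 line 1 (next line 3.22) and at 4.88 in MEF-2 line 3 (next line 4.08).

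Cytl1 of the chondrogenic list moved in opposite directions from the parental lines. Every MEF-1 clone was above its parental line, by a mean of 0.75, and every MEF-2 clone was below its own, with a mean difference of -0.24. The pattern is not particular to Cytl1. Among other genes of the wider lists, named after their values were seen, it was also found in Ank (means of 0.59 and -0.59), Fam20c (0.20 and -0.76), Ifitm5 (0.42 and -0.54) and Ihh (0.31 and -0.57). The share of all genes with this pattern is not given here, and these differences between the sets were not tested.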

How the results depend on the processing

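Mgp and Sox5 were lower in MEF-2 and called under every alternative run, with adjusted p up to 0.00856 and 0.00377. Dlx5 kept its direction but lost its call with quantile normalisation (-0.90, adjusted p = 0.118), by the exact permutation test (0.0654) and in 11 of 14 fits without 1 line (adjusted p 0.00207 to 0.0777). Spp1 gained a call in 3 alternatives and Sox9 in 1. The number of members called was 2 to 4 in the fits without 1 line, 2 with quantile normalisation or the exact permutation test, and 4 with chromosome medians taken away. Differences near 0 changed sign without any call. Leaving out 1 line gave -0.092 to 0.037 for Runx2, -0.058 to 0.14 for Sp7 and -0.66 to 0.015 for Alpl, and quantile normalisation gave 0.097 for Alpl and moved Sp7 to 0.46 (adjusted p = 0.0613). Among the relations, Runx2 with Sp7 in MEF-1 became -0.11 with chromosome medians taken away. Without the 2 farthest lines, Runx2 with Alpl in MEF-2 became -0.011, Sox9 with Sox5 in MEF-2 -0.58 and Sox9 with Mgp in MEF-2 -0.72. The cause of these changes was not tested.

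The numbers of the clonal lines did not pair the sets. The correlation of deviations between same-numbered lines ran from -0.133 to 0.200, over 0.1 in 2 of 7 pairs, and 1 of 7 lines correlated best with its own number. With the replicate number as a block, 8226 genes and 2 members were called, Dlx5 losing its call (adjusted p = 0.105), and 27 chondrogenic, 15 osteogenic and 10 mineralisation genes.

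Without 1 line, 8026 to 8673 genes were called, and 25 to 26 chondrogenic, 13 to 18 osteogenic and 9 to 11 mineralisation genes. With chromosome medians taken away these were 8679, 24 (3 of them higher in MEF-2), 20 and 11. The depth of the libraries is unknown, and the shrinkage of rlog values limits what can be said of genes as low as Sp7 and Ibsp.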

Other observations

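Transcripts on the opposite strand of Runx2 were also measured. Runx2os1 had 5.20 ± 0.10 in MEF-1 and 4.89 ± 0.27 in MEF-2 clones (SD, n = 7 each), Runx2os2 had 2.91 ± 0.26 and 2.54 ± 0.22, and Supt3, a protein-coding gene that runs against Runx2, had 9.94 ± 0.11 and 9.98 ± 0.11. The libraries were directional, but whether strand was used in quantification is not given in the sources used here.

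The remaining marker lists gave these values. The endothelial list had 5 of 7 markers above 0, led by Tek (4.94) and Kdr (3.46), with a summed log2 level of 5.12 to 6.41 in MEF-1 and 5.15 to 6.87 in MEF-2 clones. The epithelial list had 4 of 7, led by Cdh1 (7.44) and Epcam (3.15), at 6.98 to 8.51 and 6.74 to 8.43. The skeletal muscle list had 3 of 7, led by Acta1 (7.44) and Des (3.44), at 5.44 to 7.49 and 7.28 to 10.34, with Myod1, Myog, Myf5 and Pax7 at or below 0. The adipocyte list had 5 of 7, led by Fabp4 (7.82) and Pparg (7.27), and the neural and Schwann cell list 5 of 7, led by Nes (11.62) and Tubb3 (11.26), with Sox10 at or below 0.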
